A study of Mus musculus with 14 samples.

Results

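The genes described here are the 3 TGF-beta ligands (Tgfb1, Tgfb2, Tgfb3) and a group of scar and elastic matrix genes (Fn1, Postn, Tnc, Eln, Lox and Ccn2, also known as Ctgf). They were chosen by name, and each was read at the array probes whose RefSeq transcript belongs to it. Of the 9 genes, 8 had a probe, which gave 11 probes out of 41174 and 8 genes out of 17178 named on the array. Lox was not analysed here. The lungs came from male C57BL/6N mice taken 6 months after a dose of 200 µg of carbon fibre per mouse was given into the trachea. The fibre had been fired (RCF, 4 lungs), carbonized (CCF, 3 lungs) or not yet recycled (VCF, 4 lungs), and 3 lungs of mice given phosphate-buffered saline served as controls (Ctrl). Each array carried the Cy3-labelled RNA of 1 lung, and the series describes the lungs as independent biological samples. The age of the mice is not given in the sources used here.

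TGF-beta is secreted bound to a latency protein in the matrix. Once freed, often by integrins, it acts through its receptors and the SMAD transcription factors. In the lung it drives fibroblasts to become myofibroblasts and to lay down matrix, and it is the best known signal of pulmonary fibrosis. Fibronectin (Fn1), periostin (Postn) and tenascin C (Tnc) are matrix proteins that fibroblasts deposit in healing and scarring tissue. Elastin (Eln) forms the recoiling fibres of the alveolar wall. Ccn2 is a secreted matricellular protein induced by TGF-beta and by mechanical stretch.

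The promoters of Tgfb2 and Tgfb1 are shown because Tgfb2 stood furthest from Ctrl of the ligands relative to its spread, and Tgfb1 is the ligand most studied in fibrosis. Each sequence is the 250 bases before the transcription start, from RefSeq on build GRCm38.p6, read 5′ to 3′ on the gene's strand. Tgfb2 lies at chr1:186705990-186706239 (minus strand) and Tgfb1 at chr7:25686752-25687001 (plus strand). Capitals mark the SMAD box CAGAC or GTCTG, the GC box GGGCGG or CCGCCC, and TATAAA, the last searched on the gene's strand only.
Tgfb2: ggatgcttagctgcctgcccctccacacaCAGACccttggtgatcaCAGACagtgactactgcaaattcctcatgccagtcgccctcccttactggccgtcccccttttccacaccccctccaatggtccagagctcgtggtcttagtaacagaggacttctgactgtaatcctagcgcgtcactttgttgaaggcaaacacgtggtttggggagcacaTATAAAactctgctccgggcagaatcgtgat
Tgfb1: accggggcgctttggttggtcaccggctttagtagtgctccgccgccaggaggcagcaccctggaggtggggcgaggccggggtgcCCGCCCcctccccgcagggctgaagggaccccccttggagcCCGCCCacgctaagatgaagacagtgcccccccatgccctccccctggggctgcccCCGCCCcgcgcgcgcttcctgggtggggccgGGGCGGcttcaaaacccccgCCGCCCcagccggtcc
The Tgfb2 window held 2 SMAD boxes, no GC box and a TATAAA that begins 31 bases before the start. The Tgfb1 window held 5 GC boxes and neither of the other motifs, and no matches overlapped. Among all 32851 promoter windows of this length in the table, 42.2% held a SMAD box, 32.7% a GC box and 7.6% TATAAA on the gene's strand. Of the 8 genes with a probe, 4 were in that table. No binding at these windows was measured.

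Levels are log2 of the background-subtracted signal minus the array's 75th percentile, so 0 is a signal at that percentile. The percentile ran from 725 to 1346 intensity units over the 14 arrays, and 25969 to 29076 probes per array stood well above background. No probe was saturated. Sftpc of alveolar type 2 cells and Scgb1a1 of airway club cells were well above background on all 14 arrays. Some arrays were also high in genes of neighbouring tissue. The score used for a marker list was the mean difference of its genes from the Ctrl mean. The liver score (5 of 8 markers measured) was 3.05 in RCF replicate 1 and 3.11 in CCF replicate 2. The thymus score (3 of 6) was 4.06 in CCF replicate 3, and the adipose score (8 of 8) was 2.67 in VCF replicate 1. Rag1 of the thymus list, and Lep and Ucp1 of the adipose list, stood well above background on only 3 arrays. That is the fewest for a probe to be tested, so these scores rest partly on genes dim on most arrays. Slides held lungs of several groups, and differences within a slide are given for the genes the results turn on.

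Groups were compared with limma, with all 4 groups in 1 fit. A gene was called where its p, adjusted by Benjamini-Hochberg for the 29271 probes in the fit, was under 0.05. No gene of the 8 was called in any comparison. Over all probes the share called was 0% in RCF, 0% in CCF and 0.0102% in VCF against Ctrl, 0.00342% for the mean of the fibre groups against Ctrl, and 0% in each of the 3 comparisons between fibres and in the F test across the 4 groups. At an unadjusted p under 0.05 limma gave 2 of the 8 genes in RCF, 1 in CCF and 2 in VCF against Ctrl, where 5.34%, 6.59% and 8.26% of all probes met the same threshold. It gave 2 for the fibre mean (6.66% of all probes), 0 for RCF against CCF (7.9%) and 2 in the F test, Eln and Tgfb2 (7.7%). That F test count was not steady. It was 0 with slide as a fixed block or with normexp background correction, and 3 with cyclic loess normalization. No gene had groups apart in CCF against Ctrl (9.76% of all probes) or in RCF against CCF (8.63%). The median difference over the 8 genes was -0.11 in RCF, -0.09 in CCF and -0.11 in VCF, beside 0.01, -0.01 and 0.01 over all probes. In whole lung, fewer cells of a type and less RNA per cell cannot be told apart.

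**Figure D1:**
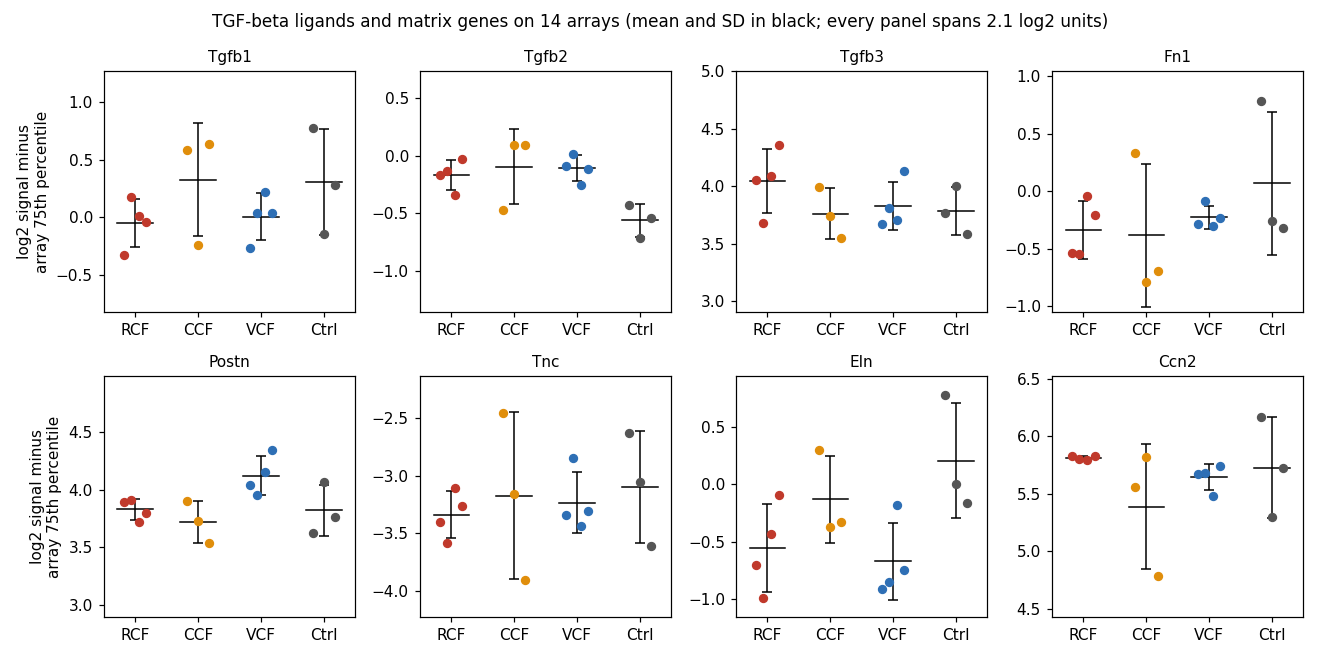
Levels of the 8 genes at their lead probe (log2 signal minus the array's 75th percentile), 1 point per lung, for RCF (4), CCF (3), VCF (4) and Ctrl (3), with mean and SD in black. Every panel spans the same number of log2 units. Tgfb2 lay above the 3 Ctrl lungs in 10 of 11 fibre lungs, and Ctrl replicate 1 was the highest of the 14 for Tgfb1, Fn1, Eln and Ccn2.

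Tgfb2 was the ligand that stood furthest from Ctrl relative to its spread. Its levels were -0.17, -0.14, -0.34 and -0.03 in the RCF lungs, -0.47, 0.09 and 0.09 in the CCF lungs and -0.09, 0.02, -0.26 and -0.11 in the VCF lungs, against -0.43, -0.72 and -0.54 in the Ctrl lungs. Every RCF and VCF lung lay above every Ctrl lung, as did 2 of the 3 CCF lungs, and CCF replicate 1 lay within the Ctrl range. The means were -0.17 ± 0.13 in RCF (SD, n = 4), -0.10 ± 0.32 in CCF (n = 3) and -0.11 ± 0.11 in VCF (n = 4), against -0.56 ± 0.14 in Ctrl (n = 3).

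The Tgfb2 difference from Ctrl was 0.39 in RCF (SE 0.15, limma adjusted p = 0.862), 0.47 in CCF (SE 0.16, adjusted p = 0.644) and 0.45 in VCF (SE 0.15, adjusted p = 0.401). The VCF difference is a 1.37-fold higher level, with a 95% interval of 1.09 to 1.71. For the mean of the fibre groups, each weighted equally, it was 0.44 (SE 0.13, limma unadjusted p = 0.00486, adjusted p = 0.559). An exact permutation test of the 11 fibre lungs pooled against the 3 Ctrl lungs, another statistic, gave p = 0.0055, two-sided. Groups that did not overlap in this direction were found for 4.19% of all probes in RCF and 6.02% in VCF. The two-sided exact permutation p was 0.0571 in RCF, 0.2 in CCF and 0.0286 in VCF. The smallest that 4 against 3 lungs allow is 0.0286, and for 3 against 3 it is 0.1. The fibre groups did not separate from each other. Their Tgfb2 differences were -0.06 for RCF against VCF (95% interval -0.36 to 0.24), -0.07 for RCF against CCF (-0.40 to 0.25) and 0.01 for CCF against VCF (-0.31 to 0.34).

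Within slides, the Tgfb2 difference from Ctrl was 0.37, 0.69 and 0.09 in RCF and 0.29, 0.60 and 0.45 in VCF on slides 1, 2 and 3. In CCF it was 0.63 on slide 1 and -0.04 on slide 3, and no other slide held both. Without the 4 arrays with these high liver, thymus or adipose scores the differences were 0.39 in RCF, 0.09 in CCF and 0.44 in VCF. Leaving those out kept 1 CCF lung, replicate 1. With normexp background correction the differences were 0.30 in RCF, 0.17 in CCF and 0.31 in VCF. Their limma unadjusted p was then 0.120, 0.383 and 0.109, so none was under 0.05. The median over all probes in that setting was 0.01 in RCF, -0.23 in CCF and 0.05 in VCF.

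Marker scores of other cell types are given as ranges over the lungs of a group, and their differences were not tested. The red blood cell score (6 of 6 markers measured) was 0.83 to 1.28 in RCF, 0.34 to 1.88 in CCF and 1.21 to 1.81 in VCF, against -0.61 to 0.38 in Ctrl. The fibroblast score (11 of 11) was 0.02 to 0.39 in RCF, -0.02 to 0.43 in CCF and 0.15 to 0.44 in VCF, against -0.06 to 0.04 in Ctrl. The platelet score (6 of 6) was 0.28 to 1.30 in RCF, 0.69 to 1.95 in CCF and 0.71 to 1.71 in VCF, against -1.11 to 0.91 in Ctrl. The alveolar macrophage score (8 of 8) was -0.32 to -0.14 in RCF, -0.85 to -0.44 in CCF and -0.48 to -0.19 in VCF, against -0.15 to 0.10 in Ctrl. The smooth muscle and myofibroblast score (7 of 8) was -0.06 to 0.33 in RCF, 0.13 to 0.29 in CCF and 0.00 to 0.21 in VCF, against -0.18 to 0.13 in Ctrl. In each fibre group the endothelial, alveolar type 2 and airway epithelial scores overlapped those of Ctrl. The part of any of these cell types in the Tgfb2 values was not tested.

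Tgfb1, the ligand most often tied to fibrosis, did not separate the groups. Its levels were -0.33, 0.18, 0.01 and -0.04 in RCF, 0.59, -0.24 and 0.64 in CCF and -0.27, 0.04, 0.22 and 0.04 in VCF, against 0.78, -0.14 and 0.29 in Ctrl. The 4 groups overlapped, and the differences from Ctrl were -0.35 in RCF (95% interval -0.89 to 0.18), 0.02 in CCF (-0.56 to 0.60) and -0.30 in VCF (-0.84 to 0.24), with limma adjusted p of 0.991, 0.994 and 0.863. The Tgfb1 probe was printed 10 times per array. The median SD between its spots was 0.05, beside a pooled SD of 0.34 between lungs of a group. Without Ctrl replicate 1, the highest of the 14, the differences were -0.12 in RCF, 0.26 in CCF and -0.06 in VCF.

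Tgfb3 levels were 4.06, 3.68, 4.09 and 4.36 in RCF, 3.99, 3.74 and 3.55 in CCF and 3.67, 3.81, 3.71 and 4.13 in VCF, against 3.77, 4.00 and 3.59 in Ctrl. In RCF 3 of 4 lungs lay above all Ctrl lungs. The difference of 0.26 (SE 0.18, limma adjusted p = 0.991) was not called. It was 0.47, 0.36 and 0.32 within slides 1, 2 and 3. In CCF and VCF the differences were -0.03 and 0.05.

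**Figure D2:**
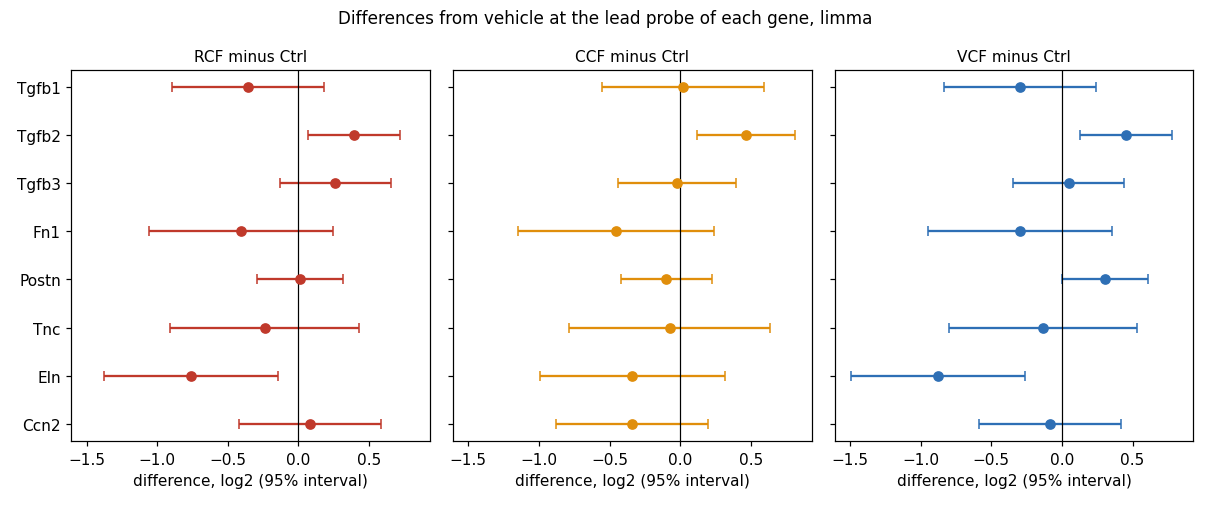
Difference of each fibre group from Ctrl at the lead probe of each gene, in log2, with the 95% interval of limma, for RCF, CCF and VCF. The Tgfb2 interval lies above 0 in all 3 panels and the Eln interval lies below 0 in RCF and VCF, and none of these differences passed the adjusted threshold.

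Eln had the largest difference from Ctrl of the 8 genes in RCF and in VCF, though not in CCF, and its Ctrl lungs were themselves spread. Its levels were -0.70, -0.99, -0.43 and -0.09 in RCF, 0.30, -0.37 and -0.33 in CCF and -0.91, -0.85, -0.18 and -0.75 in VCF, against 0.78, 0.00 and -0.16 in Ctrl. All 4 VCF lungs lay below all Ctrl lungs, though the highest VCF lung (-0.18) was close to the lowest Ctrl lung (-0.16), and 3 of 4 RCF lungs did. Groups apart in the lower direction in VCF were found for 2.66% of all probes. The difference was -0.76 in RCF (SE 0.28, limma adjusted p = 0.856), -0.34 in CCF (SE 0.30, adjusted p = 0.881) and -0.88 in VCF (SE 0.28, adjusted p = 0.395). The exact permutation p was 0.0857 in RCF, 0.5 in CCF and 0.0571 in VCF, two-sided.

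The size of the Eln difference depended on 1 control lung. Within slides it was -0.54, -0.10 and -1.21 in RCF and -0.01, -0.75 and -1.62 in VCF on slides 1, 2 and 3, and slide 3 holds Ctrl replicate 1. Without that array the differences were -0.48 in RCF (limma unadjusted p = 0.119), -0.05 in CCF and -0.59 in VCF (unadjusted p = 0.0592). Ctrl replicate 1 was the highest of the 14 arrays for 4 of the 8 genes, namely Tgfb1, Fn1, Eln and Ccn2. That array also had the lowest median signal of the 14 (48.7 intensity units). In the fit with array weights its weight of 0.47 was the lowest. The neutrophil score (8 of 8 markers measured) was -1.38 to -0.53 in RCF, -0.66 to 0.05 in CCF and -0.97 to -0.42 in VCF, against 1.21 in Ctrl replicate 1 and -0.84 and -0.37 in the other Ctrl lungs. The part of neutrophils or of array quality in the 4 genes was not tested.

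Fn1 levels at its brighter probe were -0.54, -0.55, -0.04 and -0.20 in RCF, 0.33, -0.79 and -0.69 in CCF and -0.29, -0.08, -0.30 and -0.23 in VCF, against 0.79, -0.25 and -0.32 in Ctrl. The groups overlapped, and the differences from Ctrl were -0.41 in RCF, -0.45 in CCF and -0.30 in VCF, with limma adjusted p of 0.991, 0.830 and 0.898. Without Ctrl replicate 1 they were -0.05, -0.10 and 0.06. This probe also had 10 spots per array, with a median SD of 0.04 between them and a pooled SD of 0.42 between lungs of a group.

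A second Fn1 probe, A_52_P11817, was far dimmer and stood well above background on 13 of 14 arrays. Its levels were -2.79, -2.95, -2.49 and -2.95 in RCF, -1.79, -7.86 and -3.49 in CCF and -5.49, -2.74, -2.82 and -3.03 in VCF, against -1.76, -3.54 and -2.77 in Ctrl. The differences from Ctrl at this probe were -0.11 in RCF (SE 1.12), -1.69 in CCF (SE 1.20) and -0.83 in VCF (SE 1.12). Their limma adjusted p was 0.9996, 0.832 and 0.935. CCF replicate 2 was not well above background there, and its brighter Fn1 probe was also the lowest of the 14 arrays. On that array 95 probes lay more than 3 log2 units below the median of the other arrays, against 0 to 41 on the rest. The remaining Fn1 probe and the other Tnc probe were well above background on no array and were not tested.

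**Figure D3:**
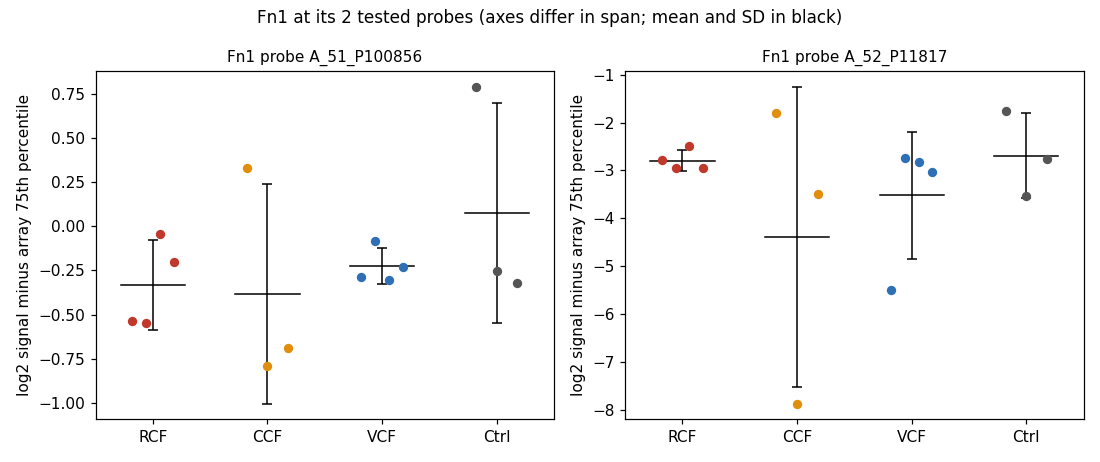
Fn1 at its brighter probe (left) and at the dimmer tested probe (right), log2 signal minus the array's 75th percentile, 1 point per lung for RCF, CCF, VCF and Ctrl, with mean and SD in black on axes of different span. CCF replicate 2 at -7.86 and VCF replicate 1 at -5.49 lie far below the other lungs at the dimmer probe.

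Postn, a matrix protein of healing tissue, was lower in the RCF and CCF lungs than in the VCF lungs, without passing the adjusted threshold. Its levels were 3.90, 3.91, 3.72 and 3.79 in RCF, 3.90, 3.73 and 3.53 in CCF and 4.04, 3.95, 4.15 and 4.34 in VCF, against 3.63, 4.07 and 3.77 in Ctrl. Every RCF and every CCF lung lay below every VCF lung, while the Ctrl lungs spanned both. The difference was -0.29 for RCF against VCF (SE 0.13, limma adjusted p = 0.939) and -0.40 for CCF against VCF (SE 0.14, adjusted p = 0.733), which are 0.817-fold and 0.757-fold. The exact permutation p was 0.0286 in both, two-sided and not adjusted for the number of tests. It is the smallest that these group sizes allow. Groups apart in this direction were found for 2.52% of all probes in RCF against VCF and 3.99% in CCF against VCF. At an unadjusted p under 0.05, 1 of the 8 genes passed in each, Postn, beside 5.29% and 5.8% of all probes.

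Within slides 1 to 4 the Postn difference of RCF from VCF was -0.26, -0.55, -0.23 and -0.13. For CCF against VCF it was -0.62, -0.05 and -0.31 on slides 1, 3 and 4. VCF against Ctrl gave 0.30 (SE 0.14, limma adjusted p = 0.607), with 0.39, 0.28 and 0.33 on slides 1, 2 and 3. RCF and CCF differed from Ctrl by 0.01 and -0.10. With normexp background correction the difference was -0.16 for RCF and -0.17 for CCF against VCF (limma unadjusted p = 0.539 and 0.557). The median over all probes in that setting was -0.05 for RCF and -0.27 for CCF against VCF. Measured against that median, Postn was not lower in CCF than in VCF.

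Tnc was dim, with 71.3 to 162 intensity units over the 14 arrays. Its levels were -3.40, -3.59, -3.11 and -3.26 in RCF, -2.46, -3.16 and -3.91 in CCF and -3.34, -2.85, -3.44 and -3.31 in VCF, against -2.63, -3.06 and -3.61 in Ctrl. The differences from Ctrl were -0.24, -0.08 and -0.14, each within 1 SE of 0.

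Ccn2 levels were 5.83, 5.80, 5.79 and 5.83 in RCF, 5.56, 5.82 and 4.78 in CCF and 5.67, 5.68, 5.48 and 5.74 in VCF, against 6.16, 5.29 and 5.72 in Ctrl. The 4 RCF lungs lay close together, and all lay above all VCF lungs. Groups apart in the higher direction were found for 1.37% of all probes in RCF against VCF. That difference was 0.17 (SE 0.21, limma adjusted p = 0.9999), and the limma SE is larger than the RCF spread because it pools all groups. Its exact permutation p, not adjusted for the number of tests, was 0.0286. CCF replicate 3 was the lowest of the 14 arrays at 4.78, and was also lowest for Tgfb3, Postn and Tnc. Differences from Ctrl were 0.08, -0.34 and -0.08, with adjusted p of 0.997, 0.838 and 0.976.

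**Figure D4:**
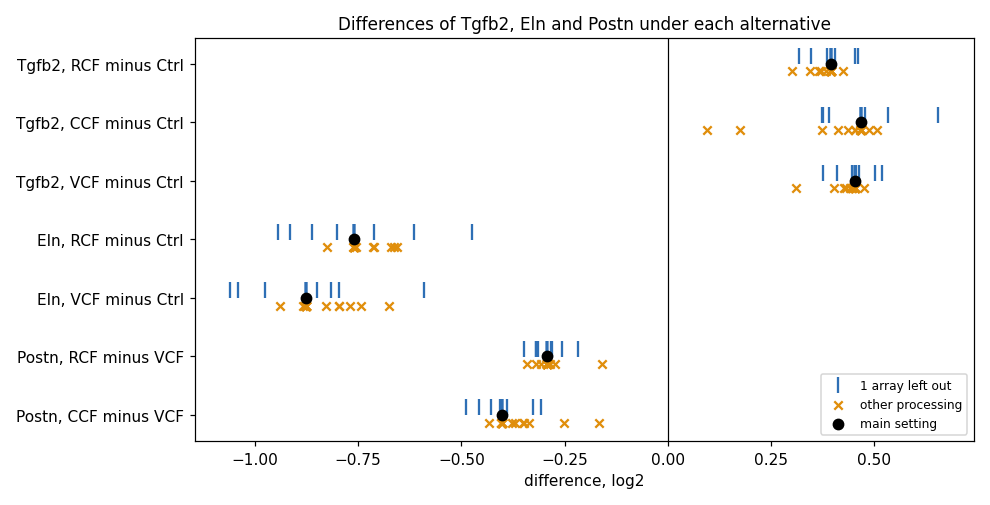
Differences (log2) of Tgfb2 from Ctrl in RCF, CCF and VCF, of Eln from Ctrl in RCF and VCF, and of Postn in RCF and CCF from VCF, in the main setting (black), with 1 array left out (blue ticks) and under the other processing alternatives (orange crosses). The 7 differences drawn kept their sign throughout, and Tgfb2 in CCF reached down to 0.09 without the 4 arrays high in genes of neighbouring tissue. With normexp the Postn difference of CCF from VCF was smaller in size than the median of all probes (-0.27).

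Pairs of the genes were also compared across the lungs within groups. After each group's mean was subtracted, 28 pairs of the 8 genes were correlated over the 14 arrays, with exact permutation p-values from reordering lungs within groups. Fn1 and Tnc had a Pearson r of 0.81 and a Spearman rho of 0.71 (exact p = 0.0151 and 0.0334, adjusted p = 0.283 and 0.312). Fn1 and Eln had r = 0.76 and rho = 0.72 (exact p = 0.0202 and 0.0164, adjusted p = 0.283 and 0.312). No pair passed the adjustment. Without the 2 arrays farthest in Fn1 the r was 0.64 with Tnc and 0.57 with Eln. With slide means removed as well it was 0.40 with Tnc and 0.79 with Eln, and the Eln r was 0.67 without Ctrl replicate 1. Tgfb3 and Tnc had r = 0.55 and rho = 0.65 (exact p = 0.0533 and 0.0268, adjusted p = 0.498 and 0.312). Their r was 0.81 with slide means removed as well. The lowest r was that of Tgfb2 with Postn (r = -0.57, exact p = 0.0821, adjusted p = 0.523).

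**Figure D5:**
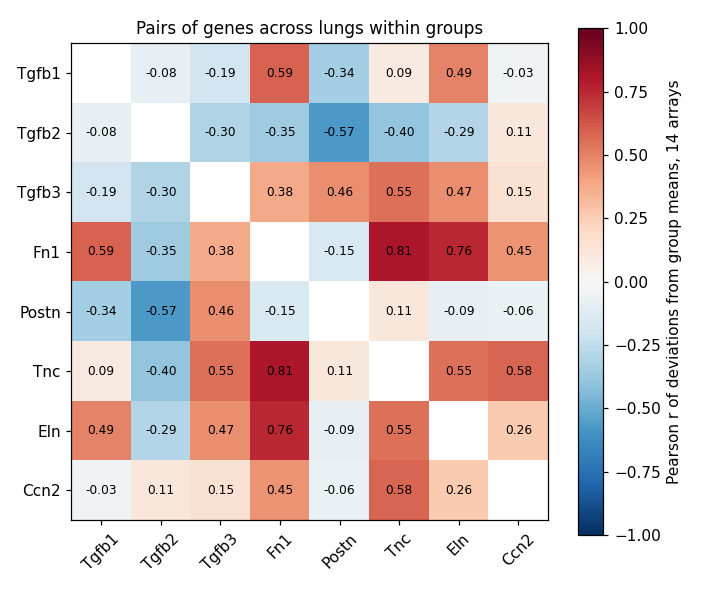
Pearson r between the 8 genes after subtracting group means, over 14 arrays, from -1 (blue) to 1 (red). Fn1 with Tnc (0.81) and Fn1 with Eln (0.76) are the highest, and Tgfb2 with Postn (-0.57) is the lowest.

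Among 13005 other genes measured on all 14 arrays, those that followed each gene most closely were found in the same way, as a description. For Ccn2 they were the flow-responsive transcription factor Klf2 (r = 0.96), the EGF receptor inhibitor Errfi1 (0.91) and the AP-1 member Fosl2 (0.90). For Tgfb2 they were Gorasp1 (0.90), the prostaglandin synthase Ptgs2 (0.84) and Ap3s2 (0.83). Tgfb1 was followed by Cda (0.92), Ap2a1 (0.91) and Fmnl1 (0.91), and Tgfb3 by Araf (0.93) and Mrgprf (0.92), among others. Fn1 was followed by Ergic3 (0.97), Ptpru (0.97) and Ptdss2 (0.95), and Tnc by Polh (0.97), Ccdc25 (0.96) and Aebp2 (0.95). Postn was followed by Cstf2t (0.93), Ube2o (0.92) and Ubash3b (0.91), and Eln by Cdkn2aipnl (0.93), Pced1b (0.92) and Capzb (0.91). All of these share the arrays and the group means removed. As the highest of 13005 correlations over 14 arrays, these r are high in part by selection. Spearman rho ran from 0.78 (Ccn2 with Klf2) to 0.96 (Fn1 with Ergic3). With slide means removed as well, r ran from 0.66 (Tgfb3 with Mrgprf) to 0.98 (Tgfb1 with Cda).

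The rest of the pathway was read at 9 lists of 73 distinct genes, covering receptors, latent TGF-beta binding and activation, SMAD signalling and its inhibitors, TGF-beta targets, elastic fibre assembly, lysyl oxidases, fibronectin and tenascin receptors, matricellular genes, and YAP and TAZ targets. None of the 73 was called in any comparison. At an unadjusted p under 0.05 limma gave 5 of 73 in RCF against Ctrl (1 higher, 4 lower), 4 in CCF (1 higher, 3 lower) and 5 in VCF (0 higher, 5 lower), which is 6.85%, 5.48% and 6.85%, near the shares of all probes. The 2 genes of each list with the smallest F test p are named.

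Tgfbr2, the ligand-binding receptor, averaged 5.24 ± 0.05 in RCF, 5.10 ± 0.13 in CCF and 5.16 ± 0.19 in VCF, against 5.29 ± 0.05 in Ctrl. Tgfbr1 was not well above background on 1 CCF array, at -7.82, against 1.34 to 1.87 in RCF, 0.18 to 2.35 in VCF and 1.67 to 2.04 in Ctrl. Smad7, a TGF-beta-induced inhibitor of the pathway, averaged 0.12 ± 0.06 in RCF, 0.44 ± 0.39 in CCF and 0.02 ± 0.12 in VCF, against -0.07 ± 0.06 in Ctrl. Its CCF difference was 0.51 (SE 0.16, limma adjusted p = 0.637). The decoy receptor gene Bambi differed from Ctrl by -0.29 in CCF (SE 0.13, adjusted p = 0.747).

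Among target and matrix genes, Bhlhe40 differed from Ctrl by -0.28 in RCF (SE 0.13, limma adjusted p = 0.932). Vcan, a matrix proteoglycan, differed by -0.996 in VCF (SE 0.40, adjusted p = 0.521), where its Ctrl lungs ran from -5.16 to -2.99. Itga8, an integrin subunit that binds fibronectin and tenascin C, differed from Ctrl by 0.21 in RCF, 0.01 in CCF and 0.31 in VCF. Itgb5 and Itgav, subunits of integrins that free latent TGF-beta, differed by 0.19 and -0.05 in RCF, 0.09 and -0.10 in CCF and 0.13 and 0.34 in VCF. Limma adjusted p was 0.664 or more for each of these. The integrin subunit gene Itgb1 was -0.36 in RCF against VCF (SE 0.13, adjusted p = 0.871). Spp1, which encodes osteopontin, differed from Ctrl by -0.24 in RCF, -0.40 in CCF and 0.04 in VCF.

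The elastic fibre genes did not follow Eln in 1 direction in all fibre groups. Of the 12 tested genes of that list, 9 were higher and 3 lower than Ctrl in RCF, 5 higher and 7 lower in CCF, and 2 higher and 10 lower in VCF, and none passed even the unadjusted limma threshold. Its list medians were 0.08 in RCF, -0.04 in CCF and -0.06 in VCF. Fbln2, a fibulin of elastic fibres, differed by -0.21 in RCF, 0.01 in CCF and -0.24 in VCF, and the microfibril gene Mfap5 by -0.23, -0.12 and -0.09. Among lysyl oxidases, which crosslink elastin and collagen, Loxl2 was 0.51 in CCF against VCF (SE 0.23, adjusted p = 0.860) and Loxl1 differed from Ctrl by 0.12 in RCF, -0.07 in CCF and -0.05 in VCF.

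F3, which encodes tissue factor, the initiator of coagulation, had the smallest p of the 73 genes for the fibre groups together. It averaged 2.24 ± 0.09 in RCF, 2.21 ± 0.20 in CCF and 2.34 ± 0.13 in VCF, against 2.73 ± 0.14 in Ctrl. All 11 fibre lungs lay below all 3 Ctrl lungs, with the highest at 2.49 in VCF and the lowest Ctrl lung at 2.57. Groups apart in this direction were found for 0.321% of all probes. The difference was -0.46 (SE 0.11, limma unadjusted p = 0.000888, adjusted p = 0.359), and it was not called. Lats2, a Hippo kinase in the same list of YAP and TAZ targets, was 0.36 in RCF against CCF (limma adjusted p = 0.541) and -0.38 in CCF against VCF (adjusted p = 0.709).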

How the data were processed

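Cy3-labelled RNA of 14 mouse lungs was read on 1-colour Agilent arrays. Per the file headers, the scanner output (Agilent Feature Extraction 10.7.3.1) gives background-subtracted intensity for each spot, with no scaling across arrays. Flags of 0 or 1 for signal well above background and for saturation were deposited alongside. The authors' deposited value table is in log2, and it equalled the scaled signal of each array within 0.01 at 100% of its 27496 probes.

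The processed intensity was put on a log2 scale and the 75th percentile of the array was subtracted. The 1639 control spots were dropped and repeat spots averaged. Testing covered the 29271 probes whose flag was positive on 3 or more of the 14 arrays, and a gene was read at its brightest tested probe. Tests were two-sided, with limma 3.58.1 (R 4.3.3, the data.table package, version 1.17.8) and Benjamini-Hochberg adjustment within each comparison, and exact permutation tests for single genes. Plots were made in Python 3.11.15 (matplotlib 3.10.9). In data simulated for VCF against Ctrl, 100 of 29147 probes were changed by 1 and 100 by 2 (log2). Of these changes, 45% and 90% were called, with 15 false calls among the unchanged probes. The noise was drawn independently for each array, without slides, and changes smaller than 1 were not simulated.

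Symbols came from the probes' RefSeq transcripts, and promoters from RefSeq on GRCm38.p6. The genes and lists were chosen with earlier results of these data known, and the neutrophil list was added last. Named genes are the genes above at every probe, the 2 of each related list with the smallest F test p, and the 3 genes most correlated with each gene, of which 1 is not reported here. Alternatives were normexp, quantile and cyclic loess normalization, stricter and looser filters for dim probes, the authors' values, blocks for slide, position or replicate number, fitting each pair of groups alone, another prior, array weights, the mean over a gene's probes, an adjusted p under 0.1, and leaving out arrays.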

Additional observations from a re-analysis of the deposited data

Results flagged for a closer look

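In VCF replicate 1 the second Fn1 probe stood at -5.49, against -3.03 to -2.74 in the other VCF lungs, a gap far larger than the rest of the group's range. It was well above background there. Of 18 groups of 4 lungs examined this way, 1 stood out, and chance alone marks about 5% of groups.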

How the results depend on the processing

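No member was called in any comparison under any of the 30 or 31 alternatives run for it, and no related gene was called under those run for the lists. Of 1728 differences recomputed, 1704 moved by less than the SD between lungs of a group or not at all. Another 24 moved by more, 80 changed sign, and none of the 1728 was called. Many of the 1704 could not move. The filters for dim probes, another prior, fitting each pair alone and an adjusted p under 0.1 leave the difference between group means unchanged. So does leaving out an array of a group outside the comparison. Such settings say nothing about how steady a difference or its sign is. Tgfb2 kept its sign in all alternatives, at 0.30 to 0.46 in RCF, 0.09 to 0.65 in CCF and 0.31 to 0.52 in VCF against Ctrl. Eln ran from -0.94 to -0.48 in RCF, from -0.55 to 0.09 in CCF, where it changed sign in 1 of 31, and from -1.06 to -0.59 in VCF. Postn ran from -0.35 to -0.16 for RCF and -0.49 to -0.17 for CCF against VCF. The number of probes called over the whole array ran from 0 to 16 in VCF against Ctrl (3 in the main setting), 0 to 10 in RCF (0), 0 to 1 in CCF (0) and 0 to 12 for the fibre mean (1), and was highest for VCF and RCF without CCF replicate 1 and for the fibre mean without CCF replicate 3. It ran from 0 to 4 for RCF against VCF, 0 to 1 for CCF against VCF, 0 to 3 for RCF against CCF and 0 to 4 in the F test (0 in the main setting). In CCF against Ctrl the median of all probes was -0.23 with normexp and -0.01 in the main setting. For CCF against VCF that median was -0.27 with normexp and -0.02 in the main setting. The replicate numbers were not treated as pairs in the main setting. Correlations of same-numbered arrays ran from -0.37 to 0.35, beside -0.02 to 0.43 for arrays of the same slide. The 2 ranges share pairs, as the 0.35 is that of VCF and RCF replicate 4, which were both on slide 2. Such correlations cannot settle whether the numbers pair the lungs. With the replicate number as a replicate block 0 members were called, the Tgfb2 difference was 0.37 in RCF, 0.47 in CCF and 0.43 in VCF, and 6 probes were called in VCF. Scan session was the same as slide and was not run apart from it. With 3 or 4 lungs a group, intervals of about 0.3 to 0.7 either side limit what could be called.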
